A study of Mus musculus with 2 samples.

Results

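Reference miRNAs are miRNAs whose level is assumed to be the same in every sample, so that the level of any other miRNA can be divided by theirs. The 16 entries here carry the stems miR-103, miR-107, miR-186, miR-191, miR-320, miR-361, miR-423, miR-425 and miR-484, 9 stems in common use for this purpose. There are 831 mouse miRNA entries with deposited values in all, and the array may hold more. The 16 were taken by name alone, with either arm or with no arm given. The question was how steady they were between the arrays beside other entries of like intensity.

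MVs released into the medium by MSCs were compared after culture with EPO (EPO-MVs, 1 array) or without it (MSC-MVs, 1 array). The MSCs came from the bone marrow of male C57BL/6 mice aged 4 weeks and were used at passage 3. All of them grew for 48 h in DMEM/F12 with serum (10%, fetal bovine) and penicillin/streptomycin (2%), and 100 IU/ml EPO was added for the EPO-MVs. EPO is the hormone that drives red blood cell formation. With 1 array for each condition there is no replicate, no difference below was tested, and array and EPO cannot be told apart. The number of mice behind each array is not given in the sources used here. Serum vesicles can carry miRNAs of the same sequence, and the probes may not tell mouse from bovine RNA.

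A mature miRNA is cut from a hairpin, whose -5p arm and -3p arm can each be loaded into an Argonaute protein, and it finds its target messages mainly through its seed, bases 2 to 8. An miRNA serves as a reference when it is made in most cells and at a level that treatment leaves alone, which has to be shown anew in each tissue and fluid. MiR-103, miR-191, miR-423 and miR-425 are often chosen for vesicles and plasma. In vesicles the amount packed and the number of vesicles both enter the level, and an array of total RNA does not separate them.

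Mature sequences of 14 of the 16 entries were matched by name in RefSeq (GRCm38.p6). They are 21 to 25 bases long with 40.9% to 65.2% G and C, and hold 13 seeds, since miR-103-3p and miR-107-3p have the same one. The sequences below are those on which the results turn, namely the paralogous pair, the 4 arms of the miR-191/miR-425 cluster, the arm with the smallest difference in the deposited values and the dim entry with the largest rise. Capitals mark the seed.
miR-103-3p: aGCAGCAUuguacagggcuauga
miR-107-3p: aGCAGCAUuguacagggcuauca
miR-191-5p: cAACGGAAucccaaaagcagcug
miR-191-3p: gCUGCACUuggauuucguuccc
miR-425-5p: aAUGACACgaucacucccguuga
miR-425-3p: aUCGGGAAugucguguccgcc
miR-423-5p: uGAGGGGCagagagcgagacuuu
miR-484: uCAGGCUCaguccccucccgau

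The RefSeq genes show where these hairpins lie. Mir103-1 (chr11:35782396-35782481, + strand), Mir103-2 (chr2:131288052-131288137, + strand) and Mir107 (chr19:34820687-34820773, - strand) lie within Pank3, Pank2 and Pank1, which encode pantothenate kinases, the first enzymes of coenzyme A synthesis. Mir191 (chr9:108568319-108568392, + strand) and Mir425 (chr9:108568777-108568861, + strand) both lie within Dalrd3 with 384 bases between them, and are known to be cut from a shared transcript. Mir186 (chr3:157544279-157544349, + strand) lies within Zranb2, Mir361 (chrX:113074824-113074893, - strand) within Chm, and Mir423 (chr11:77078064-77078172, - strand) within Nsrp1. No RefSeq gene spans Mir484 (chr16:14159626-14159692, + strand), whose nearest protein-coding genes are Marf1, 347 bases away, and Nde1, 3582 bases away.

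The deposited values are normalized intensities on a linear scale, and all 831 were above 0 on each array. Every value is a whole multiple of the smallest value of its array, called a step here, and an intensity of 1 held 471 steps for EPO-MVs but 447 for MSC-MVs. The median entry had 97 steps in EPO-MVs against 87 in MSC-MVs. Among the reference entries, 11 had at least 60 steps on both arrays and are called bright; the other 5 were dim. The brightness of a spot depends on its probe as well as on the amount of RNA, so that levels of different entries are not read as amounts of RNA, and sums over entries are set only against the same sum on the other array. Of the marker miRNAs, all 5 stromal entries (miR-143, miR-145, miR-199a and miR-214) were among the 208 brightest of the 831 entries. Their summed intensities were 79.0 in EPO-MVs against 115 in MSC-MVs. The 3 blood cell entries (miR-142-3p, miR-142-5p and miR-223-3p) were among these 208 as well, with sums of 62.4 and 74.7, and the 2 red blood cell entries summed to 4.21 and 4.48. Within this list miR-451a had 3.87 and 4.28, while miR-144-3p went the other way, with 0.340 in EPO-MVs against 0.195 in MSC-MVs, a log2 ratio of 0.80. Past 1.5-fold were also miR-143-3p (log2 ratio -0.63) and miR-223-3p (-0.60), both lower in EPO-MVs. None of these 10 entries was at the smallest value of an array, and their part in the results below was not tested.

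**Figure D1:**
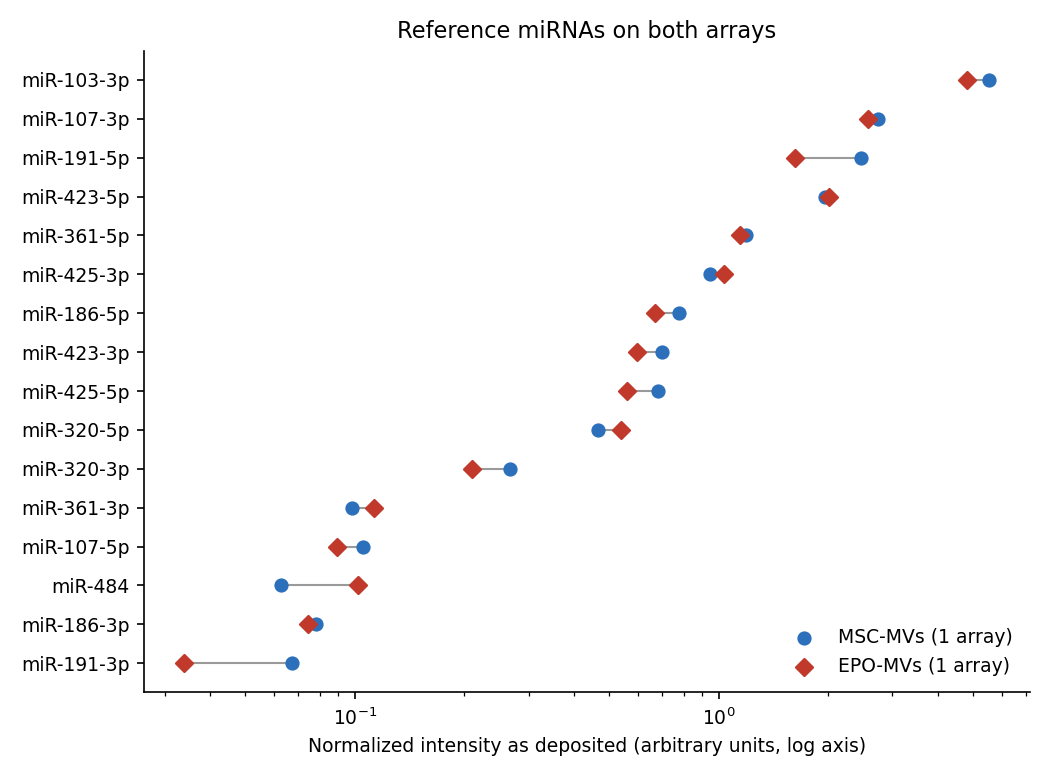
Normalized intensity (arbitrary units, log axis) of the 16 reference entries in MSC-MVs (circles) and EPO-MVs (diamonds), 1 array each, ordered by mean intensity. The wide gaps are those of miR-191-5p, miR-191-3p and miR-484, and the symbols of miR-423-5p, miR-361-5p and miR-107-3p overlap.

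Most reference miRNAs differed little between EPO-MVs and MSC-MVs, and 1 of the most trusted, miR-191, was among the exceptions. Of the 16 entries, 13 stayed within 1.5-fold and 11 within 1.2-fold; the latter number was between 8 and 12 under the 5 other scalings. Both arms of miR-191 passed 1.5-fold with lower values in EPO-MVs, and miR-484 did with a higher value. The 3 entries past 1.5-fold are 18.8% of the 16, against 25.4% of all 831 entries. At 1.2-fold the shares were 31.2% (5 entries) and 55.4%. By direction, the share past 1.5-fold and higher in EPO-MVs was 6.25% of the reference entries against a background of 17.8%, and the share past it and lower was 12.5% against 7.58%.

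These shares over all entries include many dim ones, whose ratios scatter widely. Among the 463 bright entries, 1 of the 11 reference entries passed 1.5-fold (9.09%), beside 8.64% of all bright entries, so that their share was close to the background. At 1.2-fold, 3 of the 11 passed (27.3%), beside 40.4%. The median absolute log2 ratio was 0.21 for the 11 bright reference entries and 0.21 for the other 452 bright entries. Over all intensities it was 0.22 for the 16 and 0.31 for the other 815. The 5 reference entries among the 208 brightest (miR-103-3p, miR-107-3p, miR-191-5p, miR-361-5p and miR-423-5p) had a median of 0.09, and the other 203 entries there had 0.21. Among the 207 entries next in brightness, the medians were 0.23 for 6 reference entries and 0.22 for 201 others.

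**Figure D2:**
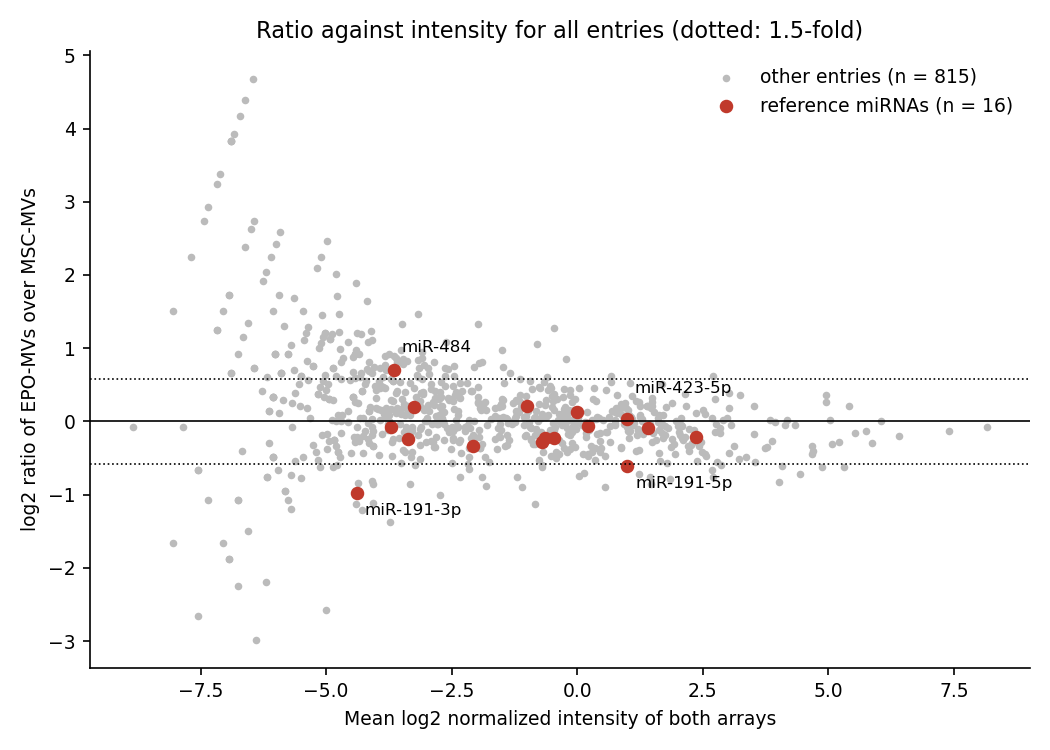
Log2 ratio of EPO-MVs over MSC-MVs against the mean log2 intensity of both arrays for 16 reference entries (red) and 815 other entries (grey), with dotted lines at 1.5-fold. The scatter of all entries narrows with intensity, and the 11 bright reference entries lie between -0.60 and 0.21.

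For a closer comparison, each reference entry was set beside the 50 entries outside the group that were nearest to it in mean log2 intensity. An entry was called steadier when fewer than 25 of its 50 neighbours had a smaller absolute log2 ratio. By this measure 10 of the 16 were steadier than the middle of their neighbours, and 7 of the 11 bright ones were; the median entry had 22 of 50 neighbours below it. The count lay between 7 and 12 of 16 under the other scalings of the arrays. An even split, the share for entries no steadier than their neighbours, lies within this range. Summed over the 16 sets of neighbours, with neighbours counted again where sets overlap, 119 of 800 passed 1.5-fold. That share is smaller than the 18.8% (3 of 16) of the reference entries, a difference that was not tested.

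**Figure D3:**
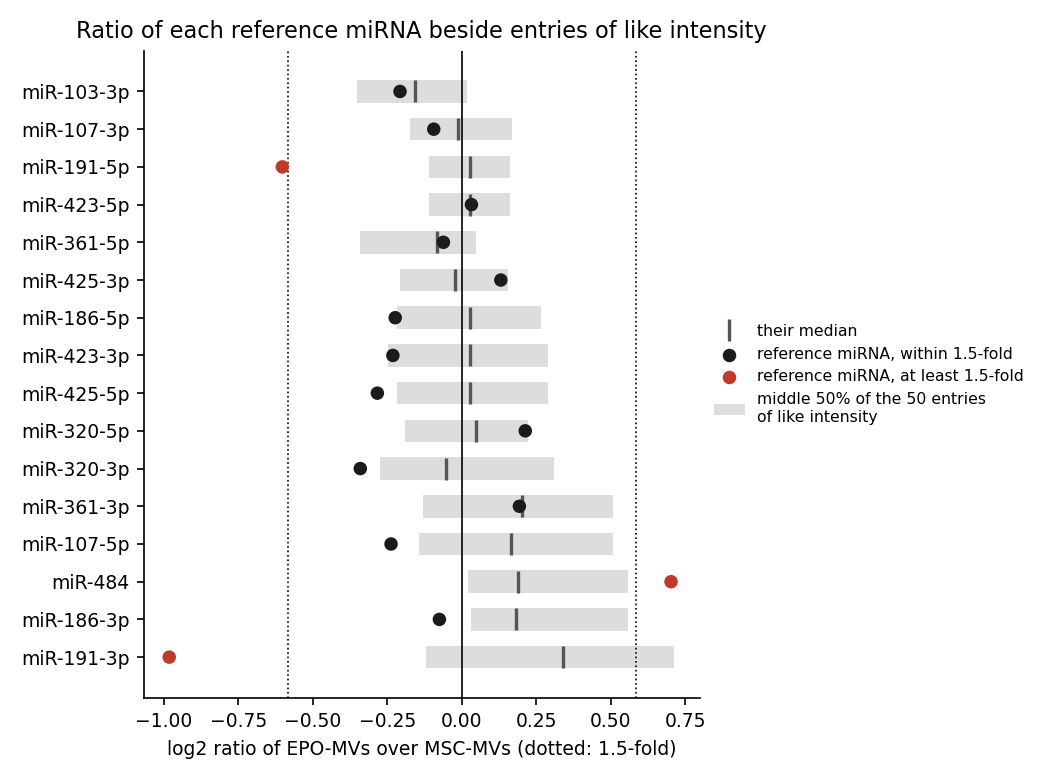
Log2 ratio of EPO-MVs over MSC-MVs of each reference entry (points; red at 1.5-fold or more), ordered by mean intensity, with the middle 50% (bars) and the median (ticks) of its 50 neighbours in intensity. The points farthest outside their bars are those of miR-191-5p and miR-191-3p; miR-186-5p, miR-425-5p, miR-320-3p, miR-107-5p and miR-186-3p also lie below theirs, and miR-484 lies above.

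The paralogous miR-103-3p and miR-107-3p are known to hold down Dicer and to lower insulin sensitivity in liver and fat. Their sequences, printed above, differ at 1 base, G22C from miR-103-3p to miR-107-3p, counted from the 5′ end, and a probe may bind both. The normalized intensity of miR-103-3p was 4.80 in EPO-MVs against 5.54 in MSC-MVs (2261 and 2478 steps), a log2 ratio of -0.21. That of miR-107-3p was 2.57 and 2.74 (1210 and 1226 steps), a log2 ratio of -0.09. Both were slightly lower in EPO-MVs, and the ratios of the paralogs were 0.11 apart on the log2 scale. The log2 ratio of miR-103-3p was -0.04 with quantile normalization, where miR-107-3p was the lower of the pair (-0.08), and -0.07 with lowess, where miR-107-3p had -0.01. For miR-103-3p, 22 of 50 neighbours were steadier and their median was -0.16; for miR-107-3p, 17 of 50 were. The passenger arm miR-107-5p was dim, with intensities of 0.0892 and 0.105 (42 and 47 steps) and a log2 ratio of -0.24, while its neighbours had a median of 0.16. It passed 1.2-fold with quantile normalization (-0.46), with lowess (-0.44) and with re-centring (-0.29).

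The miR-191/miR-425 cluster held miR-191-5p, which had the largest difference among the 11 bright reference entries. MiR-191 is known to fall during the last steps of red blood cell formation in the mouse, where it acts on Riok3 and Mxi1. The intensity of miR-191-5p was 1.62 in EPO-MVs against 2.46 in MSC-MVs (764 and 1101 steps). Its log2 ratio was -0.60, a 1.52-fold lower level in EPO-MVs. Of its 50 neighbours 48 were steadier, and 1 had a lower ratio. The call was close to the threshold, and the log2 ratio was -0.54 with the intensity trend removed by lowess and -0.55 after scaling to the 75th percentile, both within 1.5-fold.

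The other arm, miR-191-3p, moved the same way but was dim. Its intensity was 0.0340 in EPO-MVs against 0.0671 in MSC-MVs, or 16 and 30 steps, which gave a log2 ratio of -0.98, the largest difference among the 16 with the deposited values. At this intensity 21 of its 50 neighbours passed 1.5-fold as well, though their median was 0.34 and only 2 had a lower ratio. With a pseudocount of 0.0573 its log2 ratio was -0.45, while it was -1.33 with quantile normalization and -1.30 with lowess.

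MiR-425 is cut from the same transcript and is known in people to silence the message of atrial natriuretic peptide. The intensity of miR-425-5p was 0.561 in EPO-MVs against 0.682 in MSC-MVs (264 and 305 steps), a log2 ratio of -0.28, and 28 of 50 neighbours were steadier. The intensity of miR-425-3p was 1.04 and 0.946 (488 and 423 steps), a log2 ratio of 0.13, with 18 of 50 steadier. The 4 arms of the cluster thus ran from -0.98 to 0.13, and the bright arms miR-191-5p and miR-425-3p were 0.73 apart on the log2 scale, or 1.66-fold. Among the deposited entries with a RefSeq sequence, miR-489-3p has the seed of miR-425-5p.

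The deposited values put an arm of miR-423 nearest to an unchanged level among the 16. The miRNA miR-423-5p is abundant in plasma and is known as a marker of heart failure. Its intensity was 2.01 in EPO-MVs against 1.96 in MSC-MVs (946 and 878 steps), a log2 ratio of 0.03. Of its 50 neighbours 8 were steadier, and among the 208 brightest entries 22 were. Its sign turned with re-centring on the median of all entries, to -0.02. With lowess its log2 ratio was 0.09, and miR-361-3p (0.004) and miR-107-3p (-0.01) were nearer to 0; after scaling to the 75th percentile it was 0.09, and miR-361-5p (-0.009) was nearer. Other entries were nearer with quantile normalization as well, where miR-423-5p had 0.05 and miR-361-3p 0.03. The arm miR-423-3p had intensities of 0.594 and 0.698 (280 and 312 steps) and a log2 ratio of -0.23, with 22 of 50 neighbours steadier.

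MiR-361 and miR-186 stayed within 1.2-fold on both arms with the deposited values. MiR-361-5p is known to act on the message of the vascular growth factor VEGFA. Its intensity was 1.14 in EPO-MVs against 1.19 in MSC-MVs (537 and 532 steps), a log2 ratio of -0.06, and 12 of 50 neighbours were steadier. With quantile normalization its sign turned, to 0.10. The dim arm miR-361-3p had 0.113 and 0.0984 (53 and 44 steps), a log2 ratio of 0.19 beside a median of 0.20 in its neighbours. Of miR-186, whose targets include the ATP receptor P2X7, the -5p arm had 0.667 and 0.779 (314 and 348 steps), a log2 ratio of -0.22, which passed 1.2-fold with re-centring (-0.27). The -3p arm was dim and had the same 35 steps on each array, with intensities of 0.0743 and 0.0783 and a log2 ratio of -0.08. For miR-186-3p, 5 of 50 neighbours were steadier, the smallest number in the group, although their median was 0.18 and 9 had a lower ratio. This place rests on the deposited scaling, since the log2 ratio of miR-186-3p was -0.31 with quantile normalization and -0.31 with lowess.

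The remaining stems, miR-320 and miR-484, are known for hairpins that reach Dicer without being cut by Drosha. The intensity of miR-320-3p was 0.210 in EPO-MVs against 0.266 in MSC-MVs (99 and 119 steps), a log2 ratio of -0.34. That of miR-320-5p was 0.539 and 0.465 (254 and 208 steps), a log2 ratio of 0.21. The arms of miR-320 lay on opposite sides of 0 and 0.55 apart, and neither was steadier than the middle of its neighbours (29 and 26 of 50 were steadier). MiR-484, which is known to restrain mitochondrial fission through Fis1, had 0.102 in EPO-MVs against 0.0626 in MSC-MVs, or 48 and 28 steps. Its log2 ratio of 0.70, a 1.63-fold higher level in EPO-MVs, was exceeded in absolute size by 12 of 50 neighbours. It was within 1.5-fold with quantile normalization (0.49), lowess (0.47) and the pseudocount (0.41).

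Of the 7 hairpins with both arms among the deposited entries, 3 had arms of the same sign (miR-107, miR-186 and miR-191). The other 4 had arms of opposite sign (miR-320, miR-361, miR-423 and miR-425). The differences between arms ranged from 0.14 for miR-107 to 0.55 for miR-320 on the log2 scale with the deposited values. The arms of miR-191 (0.38) were the farthest apart with quantile normalization (0.72, beside 0.59 for miR-320) and lowess (0.76, beside 0.61), and those of miR-107 were 0.38 and 0.43 apart under the same settings. For miR-361 and miR-423 an arm with a sign that turns with the scaling is part of this count.

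By direction, 11 of the 16 reference entries were lower in EPO-MVs (68.8%), while 43.4% of the other 815 entries were. Among bright entries the shares were 72.7% (8 of 11) and 53.1%. The share of other entries that were lower rose with brightness, from 31.9% of the 207 dimmest to 62.6% of the 203 brightest. Of the 5 reference entries in that brightest range, 4 were lower. The median log2 ratio of the 16 was -0.15, that of the other 815 was 0.05, and those of the bright entries were -0.21 and -0.03. The number of lower reference entries was between 10 and 12 under the 5 other scalings, and 14 of the 16 kept their sign under each of them. The exceptions were miR-361-5p and miR-423-5p. Against the signed median of their own neighbours, 11 of 16 were lower.

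The choice of a reference decides what the rest of the array shows, because dividing by it adds the same number to every log2 ratio. The 11 bright entries give 55 pairs, of which 30 differed by less than 1.2-fold and 3 by at least 1.5-fold. All 3 included miR-191-5p, and pairs of other bright entries were not counted for comparison. The closest pair was miR-186-5p and miR-423-3p, which were 0.01 apart on the log2 scale, and the widest was miR-191-5p and miR-320-5p, 0.82 apart or 1.76-fold. Averaged over its 10 pairs, the difference was smallest for miR-103-3p (0.19), miR-186-5p (0.19) and miR-423-3p (0.19), and largest for miR-191-5p (0.50) and miR-320-5p (0.40). The arm miR-423-5p, with the ratio nearest to 0, averaged 0.26, since most of the bright reference entries were lower in EPO-MVs.

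With the deposited scaling, 211 of the 831 entries passed 1.5-fold, 148 of them with higher and 63 with lower values in EPO-MVs. Divided by the mean of the 11 bright reference entries, whose mean log2 ratio was -0.15, the numbers became 193 higher and 43 lower. Without miR-191-5p, a choice made after its value was seen, they were 178 and 47. With miR-191-5p alone as the reference, 479 entries were higher and 13 lower, and 59.2% of the 831 entries passed 1.5-fold. With miR-320-5p alone the majority turned, with 99 higher and 125 lower. With miR-423-5p the numbers were 139 and 69, and with miR-103-3p they were 215 and 33. For the other 10 of the 11 bright references apart from miR-191-5p, the number past 1.5-fold ranged from 208 to 312.

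**Figure D4:**
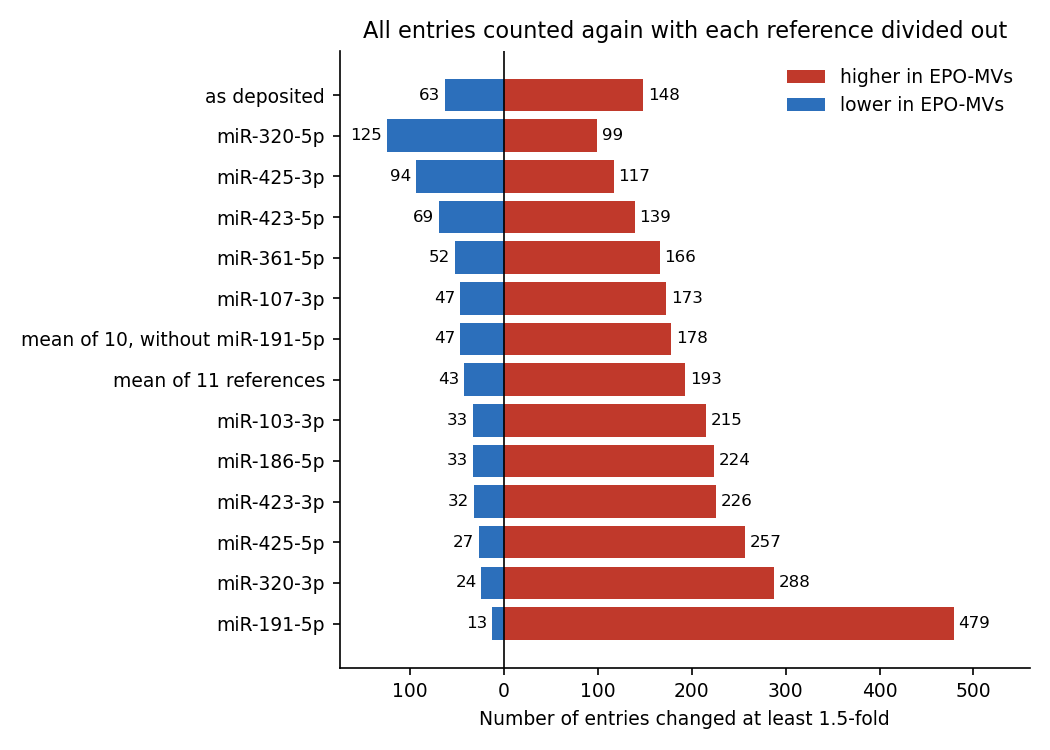
Number of the 831 entries at least 1.5-fold higher (red, right) or lower (blue, left) in EPO-MVs, with the deposited scaling (top) and after dividing both arrays by each of the 11 bright reference entries or by their mean. The split runs from 99 higher and 125 lower with miR-320-5p to 479 higher and 13 lower with miR-191-5p.

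Another 12 miRNAs in use as references were read for comparison. All 12 were lower in EPO-MVs with the deposited values, with log2 ratios from -0.72 to -0.09 and a median of -0.30; with quantile normalization and with lowess 11 of the 12 were. The 3 that were at least 1.5-fold lower were miR-16-5p (-0.72), miR-30b-5p (-0.72) and miR-25-3p (-0.62), or 25% of the 12. All 12 were bright, and 5.4% of the 463 bright entries were that much lower. The share of bright entries lower by any amount was 53.1% among those other than the 16 described above, and 62.6% among the 203 brightest of those. MiR-16, a guardian of the cell cycle that is often paired with miR-191 as a reference, had intensities of 16.9 in EPO-MVs against 27.9 in MSC-MVs. The smallest differences were those of miR-92a-3p (-0.09) and miR-26a-5p (-0.09). Of the 12, 5 were steadier than the middle of their 50 neighbours, against 10 of the 16 above; no test of this difference was made.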

How the data were processed

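Hy3-labelled RNA of 1 MV sample with EPO and 1 without was hybridized to the miRCURY LNA Array (v.18.0). The authors took the mean of repeated spots, derived a normalization factor from miRNAs with an intensity of at least 30 on both arrays, and deposited a normalized intensity per entry. Any background correction is not given in the sources used here.

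From these intensities the log2 ratio of EPO-MVs over MSC-MVs was computed for 831 entries without a pseudocount, and a ratio of 1.5 either way was counted as a change. Each member was compared with its 50 nearest non-members in mean log2 intensity. No test was possible with 1 array per condition. The members, the lists and the rules for naming miRNAs (all members, 12 other references, the 3 steadiest entries of the 208 brightest, 10 markers) were chosen with earlier results of these data known. Steps were whole to within 0.001. Alternatives were thresholds of 1.2 and 2, median re-centring, quantile normalization, lowess (span 0.4, 3 iterations), scaling to the 75th percentile, a pseudocount at the 25th percentile (0.0573), 2 filters on dim entries, 20 or 100 neighbours, and each bright member as the reference. The code for the counting was checked on simulated data without noise, which does not show how the counts behave with noise. Python 3.11.15, pandas 2.3.3, numpy 2.4.6, statsmodels 0.14.6 and matplotlib 3.10.9 were used.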

Additional observations from a re-analysis of the deposited data

How the results depend on the processing

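The number of reference entries past 1.5-fold, 3 with the deposited values, was 5 when 1.2-fold was asked for and 0 when 2-fold was. It was 1 with lowess (miR-191-3p), 1 with the pseudocount (miR-191-5p), 1 among entries above the median intensity and 1 among those with at least 60 steps on both arrays (miR-191-5p in each, with dim entries left out by construction). Over all entries, 211 passed with the deposited values, and 460 and 88 did at the thresholds of 1.2 and 2. With the pseudocount 54 passed, above the median intensity 38, and with at least 60 steps 40; fewer entries are counted by these filters. With miR-191-5p as the reference 492 passed. The median absolute log2 ratio of the other entries was 0.31 and became 0.19 with the pseudocount, beside 0.20 for the reference entries. The same median of the reference entries stayed between 0.18 and 0.27 under its 7 alternatives, their signed median between -0.21 and -0.10, and the number steadier than their neighbours between 7 and 12 under 9 alternatives, 2 of which left 11 members. For the other settings the cause was not tested. The values deposited hold no background signal, so that no entry can be set against it, and the number of arrays limits the precision. No paired analysis was possible because there was 1 array of MSC-MVs and 1 of EPO-MVs.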

Other observations

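Among the 208 brightest entries, the 3 outside both lists of references with the smallest differences were miR-709, miR-804 and miR-669c-3p. The intensity of miR-709 was 66.4 in EPO-MVs and 66.3 in MSC-MVs, a ratio of 1.001. MiR-804 had 3.04 and 3.05 (ratio 0.996), and miR-669c-3p had 3.93 and 3.91 (ratio 1.004). They were picked as the smallest of many differences on these arrays, and 1 array per condition does not show whether they would stay as close in another pair.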
